A study of Rattus norvegicus with 2 samples.

Results

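The S100 calcium-binding protein family was described in 2 arrays of the rat prostate cancer line AT6.1. The members were the 10 genes S100a1, S100a3, S100a4, S100a6, S100a8, S100a9, S100a10, S100a11, S100a13 and S100b, a family selected on its log2 ratios between these arrays as an earlier look at the data gave them, out of 14217 genes with a probe set that carries 1 gene symbol. Each member had 1 probe set, so 10 of 20826 such probe sets were involved, and no member had a further probe set against which its value could be set. One array came from clone 7, transfected with the pcDNA3 vector carrying Ndrg-1 (N-myc downstream regulated gene-1), and the other from clone 9, transfected with pcDNA3 without an insert. Both were grown in medium with 10% fetal calf serum and kept in 0.3 mg/mL of G418. Each group was 1 clone and 1 array, so clone, culture, array and insert cannot be told apart, and no difference below has a replicate or a p-value. A probe set reads RNA from the whole culture, so fewer cells with a transcript and less of it per cell cannot be told apart either.

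S100 proteins are small proteins with a pair of EF-hand loops that bind calcium, and most work as dimers. On binding calcium most of them expose a surface that docks onto other proteins, among them annexins, cytoskeletal proteins and enzymes, and some are also released and act on receptors such as RAGE (Ager) and Tlr4. S100a10 is the exception that does not bind calcium and forms a complex with annexin A2. Most S100 genes lie together on 1 chromosome. In cancer cells the family is best known for S100a4, also called metastasin, which binds non-muscle myosin and is tied to motility and metastasis.

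The Ndrg1 probe sets did not show a 2-fold excess in the array labelled Ndrg-1, so directions below are given for the arrays as labelled. Whether these probe sets read RNA from the insert was not tested. Ndrg1 had 2 probe sets. The brighter read 1353 in the array labelled Ndrg-1 and 1062 in the array labelled vector (log2 ratio 0.34), and the dimmer read 154 and 181 (log2 ratio -0.24). Vim, a mesenchymal intermediate filament gene, read 4344 and 5798, whereas of the 17 epithelial and prostate markers with a probe set only 3 exceeded the floor (defined below) in either array, namely Krt7 (204 and 255), Krt8 (38.7 and 46.2) and Tmprss2 (35.4 in the array labelled Ndrg-1). Cdh1, Epcam and Krt18 did not exceed it, and neither did 8 of the 17 mesenchymal markers. Ratios were taken after a shift of 0.0048 (log2) of the vector array, which set the median of the brighter probe sets to 0. Signals under the floor, 31.2 (the median of all signals), were raised to it, so a gene at the floor in 1 array gives only a bound.

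In the array labelled Ndrg-1, 2 S100 genes had at least 2-fold lower signal, S100a13 (4.24-fold) and its chromosome neighbour S100a1 (at least 2.04-fold), and 0 had 2-fold higher signal. The genes S100a4, S100a6, S100a10 and S100a11 were among the brightest probe sets of both arrays and read 1.24-fold to 1.42-fold lower. Their log2 ratios ran from -0.50 to -0.31, beside -0.73 to -0.24 for the 42 other genes at least as bright. Scaled to the hybridisation spikes these members turned to between 0.04 and 0.24, while the median of all genes moved to 0.53. S100a3 read 1.37-fold lower before that scaling. S100a8, S100a9 and S100b were not above the floor in either array. The 2 lower members of 7 above the floor stand beside 1.5% of all 9177 genes above the floor that were at least 2-fold lower, 1.62% that were at least 2-fold higher and 3.13% in either direction. At 1.5-fold the counts of members were the same, 2 lower and 0 higher, beside 5.15% and 5.54% of all genes. The members were picked with these ratios known, so nothing is read from that contrast.

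**Figure D1:**
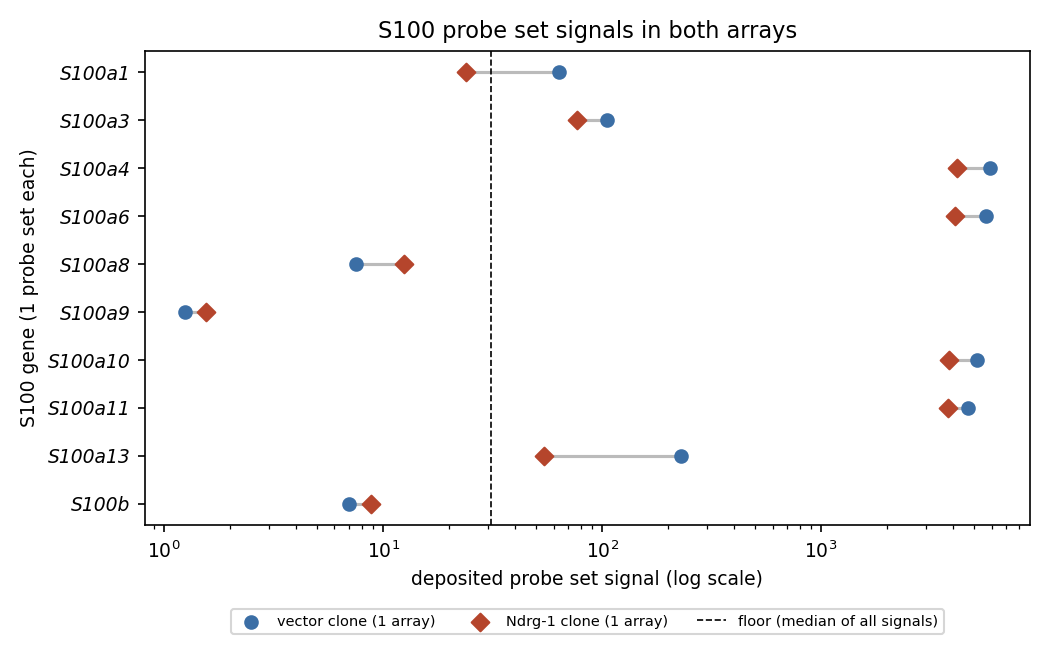
Deposited signal (log scale) of the 1 probe set of each of the 10 S100 genes, with circles for the array labelled vector, diamonds for the array labelled Ndrg-1 and a dashed line at the floor of 31.2. S100a13 has the widest gap, from 229 to 54.1, and S100a1 crosses the floor, while S100a8, S100a9 and S100b lie left of the floor in both arrays.

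The 3 stretches of DNA before the start of S100 genes are shown because they belong to the member with the widest difference (S100a13), the next gene along the chromosome that was above the floor and read the other way (S100a16) and the metastasis-associated member with the brightest probe set of the family (S100a4). Each is the 250 bases before the annotated start, 5′ to 3′ on the gene's strand, from the RefSeq annotation of rat assembly GRCr8. S100a13 lies at chr2:178296770-178297019, S100a16 at chr2:178313736-178313985 and S100a4 at chr2:178388279-178388528, all on the plus strand. Capitals mark matches to the TATA box letters TATAAA or the GC box letters GGGCGG, searched on both strands. The AP-1 letters TGANTCA were searched too and had no match here.
S100a13: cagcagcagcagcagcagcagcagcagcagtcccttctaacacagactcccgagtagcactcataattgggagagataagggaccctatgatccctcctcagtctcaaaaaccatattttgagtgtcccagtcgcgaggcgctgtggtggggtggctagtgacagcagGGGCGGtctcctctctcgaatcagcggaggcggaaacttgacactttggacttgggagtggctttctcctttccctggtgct
S100a16: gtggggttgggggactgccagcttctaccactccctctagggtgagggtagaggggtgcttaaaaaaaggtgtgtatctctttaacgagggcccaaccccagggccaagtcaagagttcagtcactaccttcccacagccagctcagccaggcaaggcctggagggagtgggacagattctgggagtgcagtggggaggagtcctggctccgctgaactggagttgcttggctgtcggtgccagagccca
S100a4: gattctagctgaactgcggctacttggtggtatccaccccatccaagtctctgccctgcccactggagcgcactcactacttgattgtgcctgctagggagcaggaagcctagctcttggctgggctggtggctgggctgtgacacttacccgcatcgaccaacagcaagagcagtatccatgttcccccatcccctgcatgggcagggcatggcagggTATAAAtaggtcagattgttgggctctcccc

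The S100a4 stretch held a TATA box match that began 31 bases before the start, and the S100a13 stretch a GC box match that began 82 bases before it. S100a16 matched neither. Of the 33469 promoters in the table, 12.9% held the TATA letters in these 250 bases, 30.5% the GC box letters and 6.34% the AP-1 letters. Promoters were listed for 7 of the 10 members. Besides those printed, GC box matches stood before S100a3, S100a6 and S100a11 and a TATA match before S100a9, and S100b had none. CpG pairs numbered 14 before S100a11, 12 before S100a6, 8 before S100a13, 6 before S100a3, 5 before S100b, 4 before S100a4 and 1 before S100a9, with 3 before S100a16, against a median of 5 over all promoters. These matches are descriptions of the letters and were not tied to the signals.

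S100a13 is a secreted member of the family that is known for the release of fibroblast growth factor 1 (Fgf1) and interleukin 1 alpha (Il1a) outside the classical secretory route. Its probe set read 54.1 in the array labelled Ndrg-1 and 229 in the array labelled vector. Both signals were above the floor, and the log2 ratio was -2.09, the ninth lowest (rank 9) of the 8549 genes above the floor in both arrays. Among the 200 such genes nearest to it in brightness, the median log2 ratio was 0.01, the 5th and 95th percentiles were -0.73 and 0.75, and 1 gene had a lower ratio. The SD of the log2 ratio between probe sets of 1 gene was 0.23 over 2293 genes, and 0.25 over the 1317 with a mean signal from 60 to 240, where S100a13 lies. That SD leaves out clones, cultures and arrays, so it bounds probe set error only. The genes next to S100a13 in order of ratio were Sspn (-2.27), Hspb7 (-2.15) and Hopx (-2.10) below it and Acsbg1 (-2.05), Sod3 (-2.01) and Map2 (-1.999) above it, in log2 ratio over the 2 arrays. The platform annotation names S100a13 for this probe set without an accession for its target, and RefSeq lists S100A1 as a synonym of S100a13. Whether the probe sets named S100a1 and S100a13 read different genes was not tested, so the pair may not be independent readings of 2 genes.

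The export partners of S100a13 gave no measurable counterpart. All 3 probe sets of Fgf1 and both of Il1a were under the floor in both arrays, the brightest of Fgf1 at 11.9 and 21.0 and of Il1a at 12.6 and 17.8. Syt1, the synaptotagmin of that export complex, was also under it, at 12.1 in the array labelled Ndrg-1 and 27.1 in the array labelled vector.

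S100a1, best known as a regulator of calcium cycling and contraction in heart and skeletal muscle, read 23.9 in the array labelled Ndrg-1 and 63.4 in the array labelled vector. The first value was under the floor, so the gene was at least 2.04-fold lower (log2 ratio -1.03 or lower). Without a floor the ratio of the 2 signals was -1.41, and with a pseudocount of 16 in place of the floor it was -0.996, just short of 2-fold. Scaled to the hybridisation spikes the bound was -0.49, so that scaling ended the 2-fold count for S100a1. Its vector signal was near the low end of what the array resolved, and its fold rests on 1 dim probe set.

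S100a1 and S100a13 are next to each other in the RefSeq order, with 0 annotated genes between them. The order runs on through S100a14 and S100a16 to S100a3, S100a4, S100a5, S100a6, S100a8 and S100a9, and S100a11 and S100a10 follow 84 annotated genes later. On the S100a1 side, Snapin and Ilf2 read close to equal in both arrays, at log2 ratios of 0.04 and 0.06. On the S100a13 side, S100a14 was under the floor in both arrays. S100a16, a widely expressed family member outside the member list, read 180 in the array labelled Ndrg-1 and 95.4 in the array labelled vector, a log2 ratio of 0.91. Under 10 alternative settings its lowest value was 0.07, only a bound, with the floor at the 75th percentile. Its highest was 1.46, when scaled to the hybridisation spikes. The nearest measured genes on both sides of the S100a1 and S100a13 pair thus did not share its lower signal. Among 59 genes on the array that neighbour a member (the 10 nearest on each side, members left out), 27 were above the floor and 0 reached 2-fold in either direction. Their median log2 ratio was -0.08 against 0.00285 over all measured genes, and 0.46 against 0.53 when scaled to the hybridisation spikes. The -0.08 pools chromosome 2, where most measured neighbours were above 0, with chromosome 20, where most were below 0. A floor at the 25th percentile counted 3 neighbours as higher and 4 as lower, scaling to the hybridisation spikes 2 as higher, and scaling to the poly-A spikes 1 as lower. Near S100b on chromosome 20, Lss, a cholesterol synthesis enzyme, stood at -0.93 (-0.53 as the median of its probe sets). Col6a2 stood at -0.74 on its brighter probe set (1416 and 2350) and at -0.78 on the other. Col6a1 stood at -0.62 (2137 and 3276). Mmp11, at the floor in the array labelled Ndrg-1 (15.8 and 43.7), stood at -0.49 or lower. Of the measured neighbours of S100b, only Mcm3ap was above 0 at this scaling, at 0.07.

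**Figure D2:**
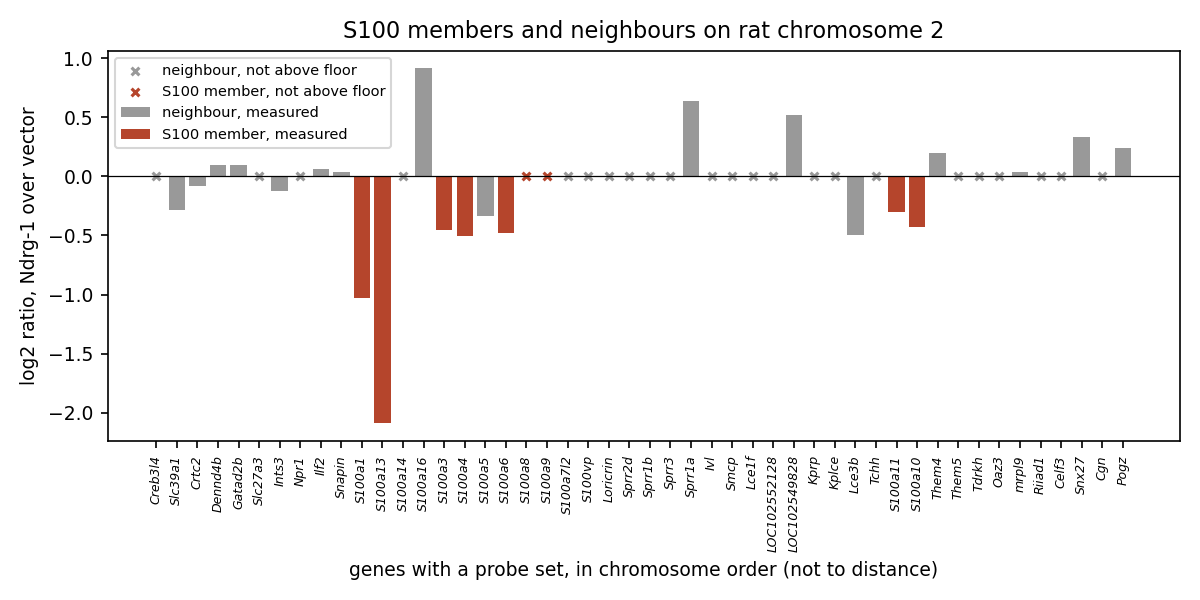
Log2 ratio (Ndrg-1 over vector, as labelled) of genes with a probe set in their order along rat chromosome 2, with bars for genes above the floor in at least 1 array (red for S100 members, grey for neighbours) and crosses for genes under it in both. S100a1 (a bound, -1.03) and S100a13 (-2.09) stand side by side below 0, between Snapin at 0.04 and S100a16 at 0.91. The bars of S100a3, S100a4, S100a6, S100a11 and S100a10 turn above 0 when scaled to the hybridisation spikes, where the median of all genes is 0.53.

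S100a4, S100a6, S100a10 and S100a11 gave the brightest signals of the family. S100a4 read 4156 in the array labelled Ndrg-1 and 5873 in the array labelled vector, a log2 ratio of -0.50. S100a6, or calcyclin, a growth-associated member, read 4095 and 5681 (-0.48). S100a10, the annexin A2 partner also called p11, read 3817 and 5133 (-0.43). S100a11, or calgizzarin, an annexin A1 partner, read 3806 and 4688 (-0.31). All were lower in the array labelled Ndrg-1 at this scaling. Scaling to the hybridisation spikes turned them to between 0.04 and 0.24 and moved the median of all genes to 0.53. Quantile normalization left -0.10 for S100a4, -0.07 for S100a6 and -0.05 for S100a10 and turned S100a11 to 0.06.

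The other bright genes also read lower at this scaling. The 42 other genes at least as bright as S100a11 all had a log2 ratio below 0, with a median of -0.39 and a range from -0.73 to -0.24, and 0 of them reached 2-fold; scaled to the hybridisation spikes, Vim, one of the bright genes, stood at 0.12. Among the 200 genes nearest in brightness to each of the 4 bright members, the median was -0.30 and the 5th and 95th percentiles were -0.49 and -0.09. Of those 200, 8 had a lower ratio than S100a4, 13 than S100a6, 28 than S100a10 and 93 than S100a11. In 64 genes with a probe set of at least 2000 and another between 60 and 1000, the brighter probe set had the lower ratio in 44, with medians of -0.16 and 0.01. Removing the trend of ratio on brightness by lowess left -0.25, -0.23, -0.19 and -0.07 for S100a4, S100a6, S100a10 and S100a11. S100a4 lay just under the 5th percentile of its 200 neighbours in brightness and the other 3 above it. Only 42 other genes were at least as bright as S100a11, so most of those 200 were dimmer than the 4 members. Brighter genes had lower ratios (a median of -0.39 for the 42 against -0.30 for the 200), so the 200 do not match S100a4 in brightness. RefSeq lists 5 pseudogenes and 2 further genes named after S100a11 and 1 pseudogene of S100a10, whose share in these signals was not tested.

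**Figure D3:**
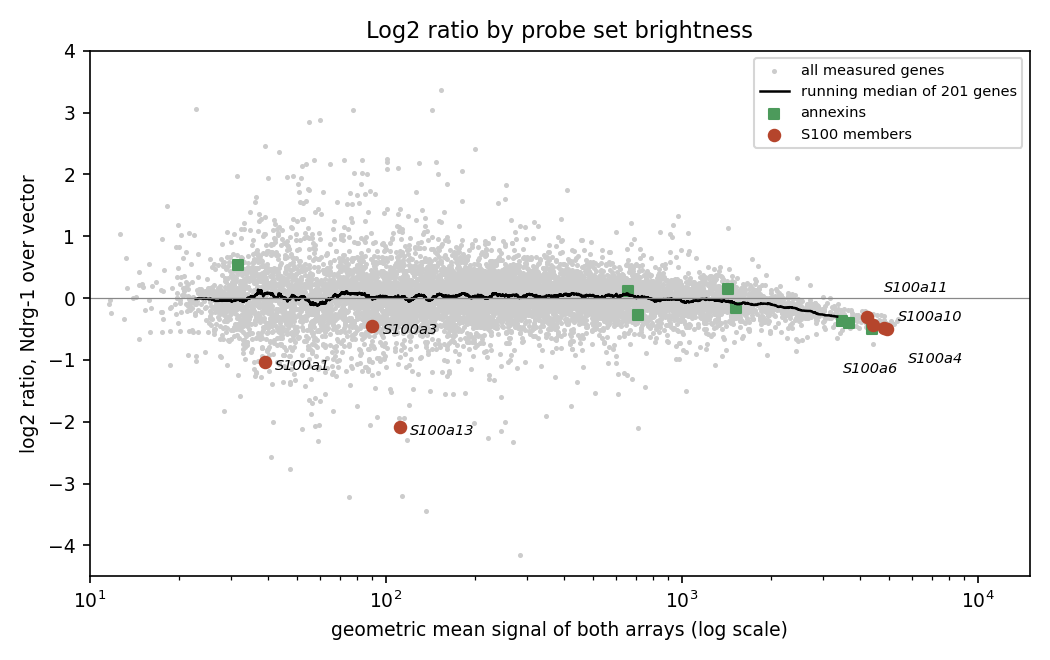
Log2 ratio (Ndrg-1 over vector, as labelled) against the geometric mean signal of both arrays (log scale), with grey points for genes above the floor in at least 1 array, a black line for their running median, green squares for annexins and red points for S100 members. The line bends below 0 at high signal, and S100a4, S100a6, S100a10 and S100a11 lie along that bend (-0.50 to -0.31). Scaled to the hybridisation spikes they turn above 0, where the median of all genes is 0.53. S100a13 at -2.09 and S100a1 at -1.03 lie where the line is near 0.

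S100a3, a zinc-binding member best known from the hair cuticle, read 77.1 in the array labelled Ndrg-1 and 105 in the array labelled vector. Its log2 ratio was -0.45. Scaled to the hybridisation spikes it turned to 0.09, beside a median of all genes of 0.53. Of the 200 genes nearest in brightness, 33 had a lower ratio before that scaling, so the value of -0.45 lay well inside their spread (5th percentile -0.97).

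S100a8 and S100a9 form calprotectin, the main calcium-binding protein of neutrophils and monocytes. S100a8 read 12.4 in the array labelled Ndrg-1 and 7.49 in the array labelled vector, and S100a9 read 1.55 and 1.25. All of these values were under the floor and no ratio was taken. Of 16 leukocyte markers with a probe set 5 exceeded the floor in either array. They were Cd14 (210 and 308), Cd68 (206 and 114), Lcn2 (153 and 98.3), Fcer1g (45.8 and 34.3) and Csf1r (15.7 and 33.3, the first under the floor). The pan-leukocyte marker Ptprc read 2.72 and 3.25 and Itgam 1.82 and 1.68, and the summed signal of the list was 724 in the array labelled Ndrg-1 and 683 in the array labelled vector.

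S100b, a marker of Schwann cells, astrocytes and melanocytes that fat cells also express, read 8.80 in the array labelled Ndrg-1 and 7.00 in the array labelled vector, both under the floor. Of 13 glial and melanocyte markers 3 exceeded the floor in either array, namely Mitf (263 and 408), Egr2 (43.2 and 33.9) and Pmel (34.0 and 36.7). Sox10 read 3.75 and 4.75. The summed signal of the list was 425.5 and 583, to which Mitf gave the largest part. Of 7 adipocyte markers 4 were above it, and Plin1, a lipid droplet coat gene, was at a log2 ratio of 2.02 on its brighter probe set and at 0.30 or more on the other, which was at the floor in the array labelled vector. The other 3 stood at -0.30 (Fabp4), -0.29 (Pparg) and -0.19 (Lipe), and the list median was -0.24. The adipocyte list summed to 4263 and 5058.

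Over the family, the 7 members above the floor had a median log2 ratio of -0.48 and all 7 were below 0, beside 0.00285 and 49.7% below 0 over all measured genes; scaled to the hybridisation spikes the members' median was 0.07 and that of all genes 0.53, and under quantile normalization they were -0.10 and 0.0070. The members were picked with these ratios known, so nothing is read from this contrast with all genes. The 4 bright members set the median of -0.48, and 198 of the 200 genes nearest to each in brightness were also below 0. S100a13 stayed below 0 in 10 of 10 alternative settings and at least 2-fold lower in 9, the exception being the floor at the 75th percentile, which left a bound of -0.42. S100a1 was below 0 in the 9 settings that measured it and at least 2-fold lower in 7. These tallies include settings whose outcome was fixed. The settings on the choice of probe set could not change either gene, as each had 1 probe set. Leaving out the rescaling undid a shift of only 0.0048 (log2). The lower floor could not change S100a13, whose signals were both above the floor already.

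**Figure D4:**
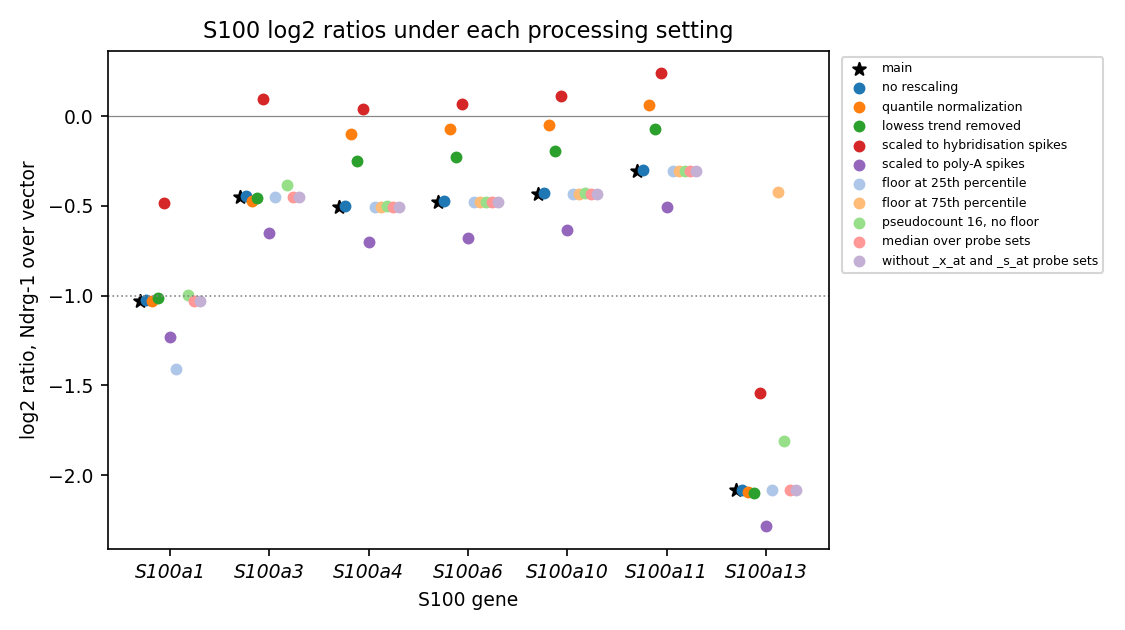
Log2 ratio (Ndrg-1 over vector, as labelled) of the 7 S100 genes above the floor, with a black star for the reported value, a coloured point for each alternative setting and a dotted line at 2-fold lower. S100a13 lies below the line in all settings but the floor at the 75th percentile (-0.42). The points of S100a3, S100a4, S100a6, S100a10 and S100a11 reach above 0 when scaled to the hybridisation spikes, where the median of all genes is 0.53. The settings on the choice of probe set could not move a point, as each gene has 1 probe set.

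Among the S100 relatives outside the member list 0 were counted at 2-fold. Of 16 listed names 8 were on the array and 3 above the floor, namely S100a16, S100pbp at 0.14 (468 and 424) and S100a5 at -0.34 or lower (16.9 and 39.2, the first under the floor; -1.22 without a floor). A floor at the 25th percentile counted 1 relative as lower (S100a5), and scaled to the hybridisation spikes 1 was counted higher (S100a16, at 1.46). That scaling put S100a5 under the floor in both arrays. The list median of 1.07 under it therefore covers only S100a16 and S100pbp, whereas the 0.14 before it also covered S100a5. S100a14, the intestinal calbindin S100g, S100a7l2, S100vp and the S100-fused gene Tchh were under the floor in both arrays. Of the 8 on the array, 6 are also counted among the chromosome neighbours.

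Annexins, the membrane-binding proteins to which several S100 proteins dock, also had 0 genes counted at 2-fold. Of 10 on the array 8 were above the floor, 3 above 0 and 5 below, with a median log2 ratio of -0.22 (0.32 when scaled to the hybridisation spikes). Anxa2, the partner of S100a10, had signals of 3703 and 5206 on its brighter probe set, a log2 ratio of -0.50. S100a10 stood at -0.43, and the 42 other genes at least as bright as S100a11 had a median of -0.39. Quantile normalization left -0.12 for Anxa2 and -0.05 for S100a10. The dimmer probe set of Anxa2 read 202 and 176, a ratio of 0.19, so the pair of probe sets disagreed in direction. Scaling to the hybridisation spikes turned the brighter to 0.05. Anxa1, the partner of S100a11, read 3067 and 3960 (-0.37). The highest was Anxa8 at 0.53 or more (45.1 and 22.1, the second under the floor), and a floor at the 25th percentile counted it as 2-fold higher, at 1.02.

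Of 48 listed receptors and binding partners 45 were on the array and 30 above the floor, of which 1 reached 2-fold upwards and 1 downwards (median -0.12, and 0.37 when scaled to the hybridisation spikes). Myh10, a non-muscle myosin heavy chain, read 53.4 in the array labelled Ndrg-1 and 260 in the array labelled vector, 4.88-fold lower. Myh9, the non-muscle myosin heavy chain best known to bind S100a4, read 1073 and 982, a log2 ratio of 0.12 that turned to -0.08 when scaled to the poly-A spikes. Cd36, a fatty acid transporter and scavenger receptor, read 2125 and 968, 2.19-fold higher (log2 ratio 1.13, and 0.93 when scaled to the poly-A spikes). The S100a6 partners Cacybp and Sugt1 stood at 0.22 and 0.20. Of the receptors, Ager was at -0.37 or lower (20.5 and 40.3, the first under the floor) and Tlr4 at -0.17 (40.2 and 45.2), both close to the floor. Partners other than Myh10 and Cd36 were named after their values were seen.

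Of 74 other EF-hand proteins listed 68 were on the array and 45 above the floor, of which 0 reached 2-fold upwards and 2 downwards (median -0.21, and 0.35 when scaled to the hybridisation spikes). Rcn3, an endoplasmic reticulum protein of the CREC family, read 98.4 in the array labelled Ndrg-1 and 288 in the array labelled vector, 2.94-fold lower. Kcnip4, a potassium channel subunit, read 62.8 and 128, 2.05-fold lower (log2 ratio -1.04, and -0.49 when scaled to the hybridisation spikes), and its second probe set, under the floor in the array labelled Ndrg-1, was at -0.20 or lower.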

How the data were processed

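The deposited values are 1 linear probe set intensity per probe set and array, which the authors made with GCOS (version 1.3 in the submitters' processing notes). How probes were summarised is not stated in those notes. The deposited intensities had a trimmed mean of 150.0 in both arrays (2% of probe sets left out at each end), so they had been scaled to a common level, and medians of 31.1 and 31.2. The number of arrays, 1 per group, limits the precision, and disagreement between probe sets of a gene is the only error the table holds. Of 31099 probe sets, 57 controls were set apart, and 436 probe sets with several symbols and 9780 with none were not used. Where a gene had several probe sets, the one brightest on average (log2) stood for it, and a difference was counted from 2-fold. The members and gene lists were chosen with earlier results of these data known. Named genes were all members, Ndrg1, up to 4 genes per list and direction past 2-fold or else the highest and the lowest, and the 3 genes next to S100a13 on each side in order of log2 ratio. Other names were added after their values were seen. The steps were tested on simulated data. Alternatives covered scaling (the lowess span was 0.3), floor, pseudocount and choice of probe set. Protein sequences were not used here. Names were taken from the platform annotation and gene order from RefSeq GRCr8. Software was matplotlib 3.10.9, statsmodels 0.14.6, pandas 2.3.3, numpy 2.4.6 and Python 3.11.15.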

Additional observations from a re-analysis of the deposited data

How the results depend on the processing

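Of 2 S100 members at least 2-fold lower, 1 was counted when scaled to the hybridisation spikes and 1 with a pseudocount of 16 in place of the floor (S100a13 both times), and 0 with the floor at the 75th percentile, where S100a1 was under the floor and S100a13 had only a bound. The count of members at least 2-fold higher was 0 in the alternatives run. The members' median log2 ratio of -0.48 moved to -0.10 under quantile normalization and to 0.067 when scaled to the hybridisation spikes, a scaling that moved the median of all genes to 0.53. Over all genes, 149 higher and 138 lower became 677 and 40 when scaled to the hybridisation spikes, 112 and 243 when scaled to the poly-A spikes, 444 and 463 with the floor at the 25th percentile, 23 and 34 with the floor at the 75th, and 508 and 473 at 1.5-fold. A low floor admits more dim probe sets and a high floor fewer; the cause of the opposite shift of the spikes (medians of -0.54 over 18 hybridisation and 0.20 over 27 poly-A probe sets) was not tested. With the floor at the 25th percentile S100a8 stood at 0.69 or more and S100b at 0.20 or more. Both are bounds, as their signals in the array labelled vector were under that floor too. No paired analysis was possible because each group has 1 array, and for the same reason no array could be left out.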
